A study of Mus musculus with 32 samples.

Results

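The cerebral arrays of day 7 after photothrombosis were compared with those of day 3, to follow how RNA in injured cerebral tissue moved from the first days into the following week. The comparison uses 8 of the 32 arrays of the series, 4 labelled 7d cPT and 4 labelled 3d cPT, chosen by that label alone. All probes with 1 gene symbol entered, which gives 19505 genes. The mice were male wild-type C57BL/6J animals of 6 to 12 weeks, weighing 20 to 25 g. Photothrombosis closes small vessels with a light-activated dye and leaves a local ischaemic lesion. It was applied to the cerebrum (cPT) or to the spinal cord (scPT), and each tissue has 4 control arrays and 4 arrays at each of days 1, 3 and 7. The control label, Kontrolle, does not say whether these animals were operated on. Nothing in the labels says that the 4 arrays of a group come from separate animals, so a p-value here speaks of the scatter of arrays, which may be technical. Tissue was whole and snap frozen, so fewer cells of a type and less RNA per cell cannot be told apart in any value given here.

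In the days after a stroke, dying neurons and broken myelin leave debris that is rich in lipid. Resident microglia and macrophages from the blood engulf it, digest it in lysosomes and store or export the cholesterol, while astrocytes become reactive around the core and fibroblasts lay down a scar. A programme of genes for lipid handling, lysosomes and debris receptors, with Trem2 and its partner Tyrobp at its head, is known from such phagocytes in the brain.

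Values are log2 and centred for each gene, so they compare arrays for 1 gene and carry no level that could be set against another gene. Controls and day 1 had been centred together, but day 3 and day 7 had each been centred in a set of their own, so their values cannot be subtracted as they stand. Each gene was therefore put back on the scale of the 8 controls. A difference passed the test only if it exceeded a bound chosen to allow for the error of that step. The bound was at least 0.266 (log2) and had a median of 0.266, and it was above 0.50 for 1020 genes. Array medians of the deposited values lay between -0.06 and 0.03, and the median residual SD of a gene on the rebuilt scale was 0.185. Markers bear out the tissue label. The mean of 13 genes of cortical excitatory neurons was 0.67 to 0.84 in the day 3 cerebral arrays and 0.72 to 0.80 at day 7, against -2.18 to -1.58 in the spinal arrays of both days. The library labelled cerebral day 1 replicate 4 was high in many of the genes that rose by day 7, and it enters the results here only through the shared estimate of spread. Without it 100 genes passed the test in place of 106. Among the arrays compared, cerebral day 3 replicate 2 had the widest spread around its group, with an SD over genes of 0.251 against 0.157 to 0.165 in the other 3.

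Between day 3 and day 7, 106 of 19505 genes changed (0.543%), by limma with a bound for each gene and Benjamini-Hochberg adjusted p under 0.05. Of these 70 rose (0.359%) and 36 fell (0.185%), while the median difference of all genes tested was -0.00167. The rises were led by genes of lipid-laden phagocytes and of extracellular matrix, Gpnmb, Mmp12, Lyz2, Postn, Cd36 and Plin2, and by the microRNA gene Mir675. The falls were smaller and more mixed, led by Tgm1, a transglutaminase of reactive astrocytes, with Arc, an activity-induced gene of neurons, and Hspa5, the chaperone of the endoplasmic reticulum, among them. At an unadjusted p under 0.05 there were 804 genes (4.12%). The 4 day 7 arrays lay all above the 4 day 3 arrays in 68 of the 70 rises, against 11.2% of all genes. They lay all below in 36 of the 36 falls, against 10.2%. The exceptions among the rises were Npy and Col10a1. The genes were called on the difference between these same arrays, which itself favours such a separation. These counts are therefore a description and no test. Each fit that left out 1 of the 8 arrays gave 60 to 80 changed genes, and 46 of the 106 passed in all 8 of these fits. The fewest were left without day 7 replicate 2 (60), day 3 replicate 2 (61) and day 7 replicate 1 (64). The deposited values taken as they stand were tested against 0, with no bound, and 107 genes passed, of which 29 are among the 106. The rebuilt values tested against 0 in the same way gave 2047. On the deposited scale the differences of the 24 genes with the largest rises and falls were 0.229 to 0.717 times those given here. Of the 24, 17 did not pass that test. On that scale each day is centred on a median of its own arrays and the 8 controls. The 24 were picked as the largest on the rebuilt scale.

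**Figure D1:**
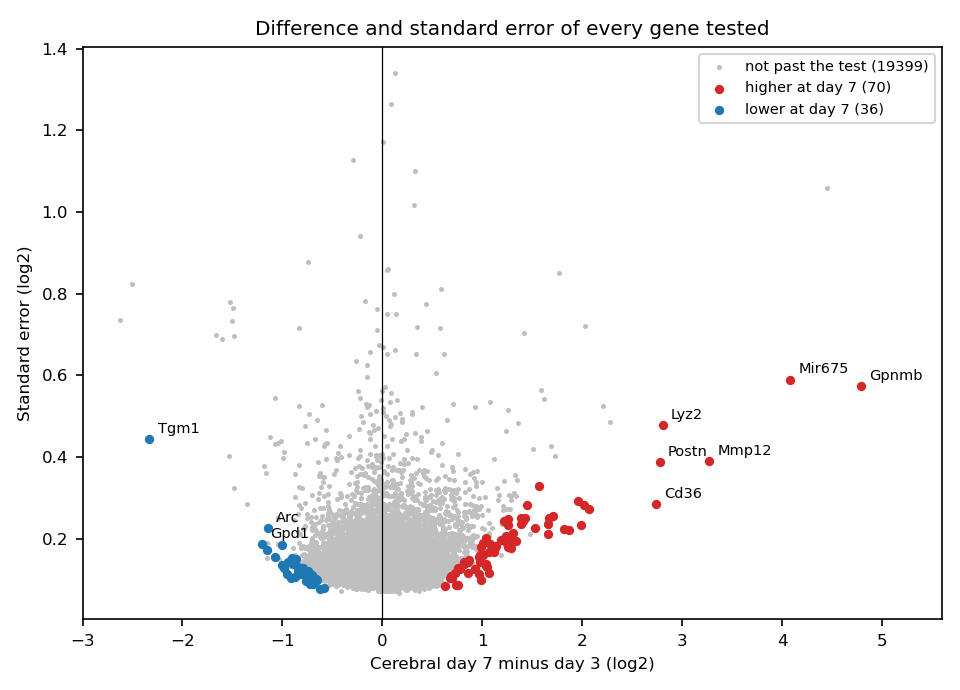
Difference between cerebral day 7 and day 3 (log2, horizontal axis) and its standard error (log2, vertical axis) for each of 19505 genes, with 70 rises in red and 36 falls in blue. Gpnmb and Mir675 lie farthest to the right and Tgm1 farthest to the left among the genes past the test, and the rises reach farther from 0 than the falls.

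The largest rise was that of Gpnmb, a membrane glycoprotein of phagocytes with a heavy lysosomal load. Its 4 day 3 values were 1.66, 1.17, 1.75 and 1.70, and its 4 day 7 values were 6.56, 6.37, 6.51 and 5.97. The groups were far apart, and all day 3 arrays lay above the controls, which were at -0.40 to -0.06. The rise was 4.78 ± 0.57 (log2, standard error, n = 4 a group), a 27.6-fold difference, with an adjusted p of 3.92e-05. The deposited values, in which the days are centred apart, gave 2.02 (adjusted p = 0.109), and quantile normalisation gave 2.78 (adjusted p = 0.00302).

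Of the 14 measured genes of activated phagocytic microglia, 6 rose, none fell and 8 did not pass, and their median difference was 1.20. Of all genes tested 0.359% rose and 0.185% fell. This list and those below were chosen with earlier results of these data known, so their counts are a description and no test. The list mean was 0.42 to 0.52 in the day 3 arrays and 1.53 to 2.0 in the day 7 arrays, against -0.70 to -0.62 in the controls. Beside Gpnmb the rises were Cst7, Tyrobp, Lgals3, Trem2 and Ctsz. Cst7 encodes cystatin F, an inhibitor of lysosomal cathepsins, and it was at -0.15, 0.36, 0.24 and 0.11 on day 3 and at 2.97, 2.32, 2.05 and 1.27 on day 7. The day 7 arrays differed among themselves more than those of day 3, yet the lowest of them was well above the highest of day 3, and the rise was 2.01 ± 0.28 (adjusted p = 0.000587). Tyrobp, the signalling adaptor of Trem2, was at 1.01, 1.00, 1.21 and 1.09 and then at 3.24, 2.96, 3.15 and 2.43, with replicate 4 the lowest. Its rise was 1.86 ± 0.22 (adjusted p = 6.03e-05). Trem2 itself, a receptor for lipids and debris, was at 1.07, 1.36, 0.92 and 1.26 on day 3 and at 2.61, 3.11, 2.83 and 2.32 on day 7. The arrays did not overlap, but the test passed narrowly (1.57 ± 0.33, adjusted p = 0.0448) and in only 1 of the 8 fits that left out an array. The galectin gene Lgals3 rose by 1.67 ± 0.25 and the cathepsin gene Ctsz by 1.39 ± 0.24, each of them in all 8 fits. Igf1, a growth factor made by such microglia, was at 0.48 to 0.62 on day 3 and 2.19 to 2.96 on day 7. Its arrays were as clearly apart, but its day offsets could not be fixed closely: the difference of 2.20 stood against a bound of 1.86 and did not pass. Apoe, the lipid carrier, had a difference of 1.02 ± 0.22 (adjusted p = 0.137).

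**Figure D2:**
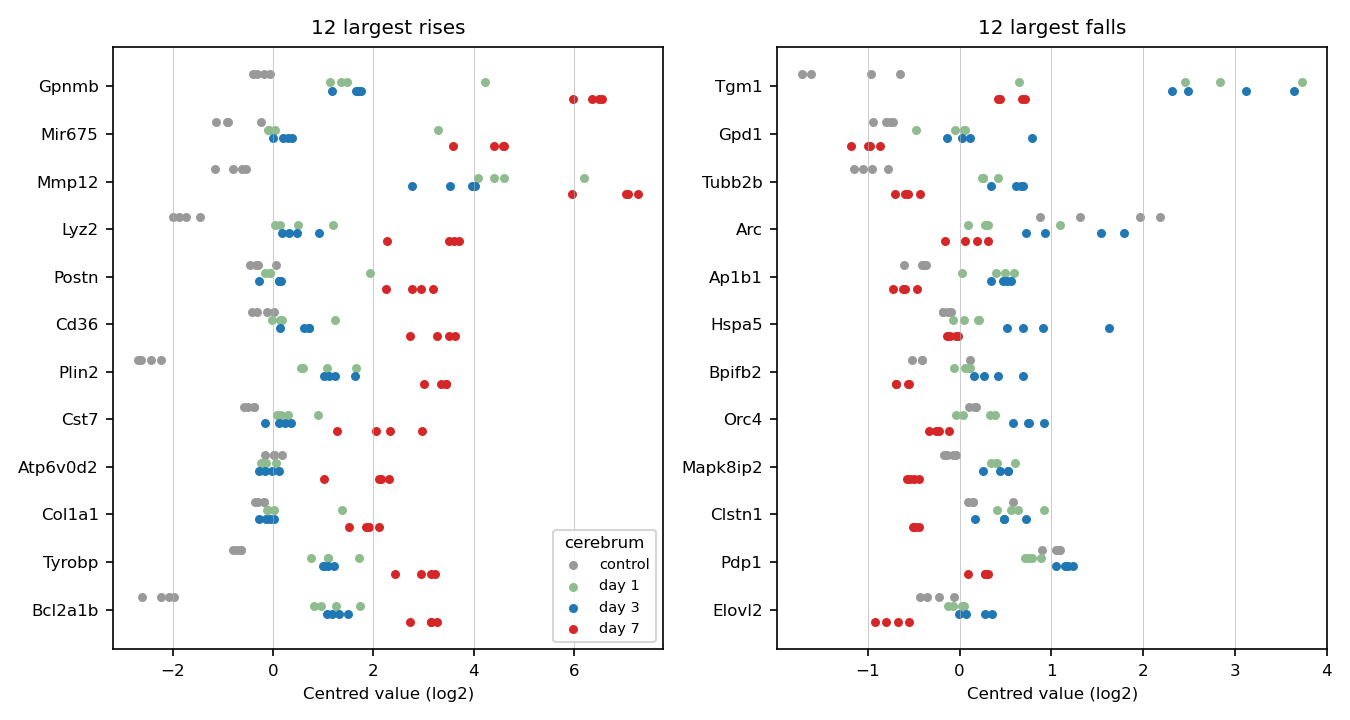
Centred log2 value of each cerebral array (horizontal axis) for the 12 largest rises (left) and 12 largest falls (right), with controls in grey, day 1 in green, day 3 in blue and day 7 in red. The genes were chosen so that day 7 and day 3 arrays do not overlap, and 1 green point lies far to the right of the other day 1 arrays in Gpnmb, Mir675, Postn and Col1a1 and far to the left in Tgm1.

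Of 10 measured genes of lipid uptake, storage and efflux, 4 rose (0.359% of all genes) and none fell, with a median of 0.85. The list mean went from 0.18 to 0.28 in the day 3 arrays to 1.08 to 1.40 at day 7. Cd36, the scavenger receptor that takes up oxidised lipoprotein and fatty acids, was at 0.62, 0.14, 0.71 and 0.72 on day 3, little above the controls at -0.43 to 0.01. At day 7 its arrays were at 3.50, 3.62, 3.27 and 2.73. The rise of 2.73 ± 0.28 had the lowest adjusted p of the 24 genes named here, 8.85e-06, and held as deposited (1.5, adjusted p = 0.0128). Plin2, which coats lipid droplets, was already high at day 3, at 1.01, 1.64, 1.23 and 1.12 against -2.69 to -2.24 in controls. It reached 3.44, 3.46, 3.35 and 3.01 at day 7, a further rise of 2.06 ± 0.27 (adjusted p = 0.000261). Lipa, the lysosomal acid lipase that frees cholesterol from its esters, rose by 1.24 ± 0.19, and Npc2, which carries cholesterol out of the lysosome, rose by 0.93 ± 0.13. Fabp4, a fatty acid carrier of macrophages, was at -0.50 to 0.03 and then at 1.42 to 2.41, but with a bound of 0.96 it did not pass (adjusted p = 0.359). The efflux pump gene Abca1 had a difference of 0.78 ± 0.23 (adjusted p = 0.715) and its relative Abcg1 one of -0.13 ± 0.13. None of 13 genes of cholesterol synthesis passed the test, with a median of -0.00 and differences from -0.31 for Lss to 0.47 for Sqle.

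In the lysosome list 2 of 15 genes rose (0.359% of all genes), none fell, and the median was 0.42. Atp6v0d2, a subunit of the proton pump that is found in macrophages and osteoclasts, overlapped the controls at day 3, at -0.16, 0.11, -0.03 and -0.28. It was at 2.12, 2.32, 2.14 and 1.01 at day 7, where replicate 4 lay well below the other 3. The rise was 1.99 ± 0.23 (adjusted p = 6.03e-05). Ctsk, a cathepsin that digests collagen, rose by 1.19 ± 0.20 (adjusted p = 0.00916), and passed in 6 of the 8 fits without an array. The cathepsin genes Ctsb and Ctss had differences of 0.66 and 0.70 that did not pass, and Tfeb, the transcription factor of lysosome genes, was at 0.10 ± 0.11. Outside the lists, Naglu and Clcn7, both of the lysosome, rose by 1.29 ± 0.20 and 1.05 ± 0.13.

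Of 12 complement genes 3 rose (0.359% of all genes) and none fell, with a median of 0.16. They are the chains of C1q, which tags debris and synapses: C1qc by 1.44 ± 0.28, C1qa by 1.25 ± 0.23 and C1qb by 1.07 ± 0.19, with adjusted p of 0.0304, 0.0286 and 0.0211. C1qa went from 1.21, 1.53, 1.39 and 1.58 to 2.83, 2.89, 2.69 and 2.31, with no overlap. These 3 calls are narrow, and they passed in 3, 2 and 3 of the 8 fits that left out an array. The other 9 members did not pass, from -0.34 for C1ra to 0.70 for C3ar1, and C4b was at 0.19 ± 0.22. For antigen presentation, 1 of 11 class I genes rose (H2-D1, 1.04 ± 0.19, adjusted p = 0.0427, and in 2 of the 8 fits without an array) and none of 8 class II genes passed, although 6 of these 8 had all day 7 arrays above all day 3 arrays (11.2% of all genes) and their median was 0.61. None of 13 genes of the type I interferon response passed, with a median of 0.30, and none of 9 Fc receptor genes, with a median of 0.19. Ccl3, a chemokine of activated microglia, had the largest difference of 15 chemokine genes, 1.29 ± 0.30 (adjusted p = 0.133).

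Of 13 metalloproteinases, ADAM proteases and their inhibitors, 3 rose (0.359% of all genes) and none fell, and the median was 0.96. Mmp12, the elastase of macrophages, was at 3.97, 2.77, 4.04 and 3.52 on day 3 and at 7.09, 7.04, 7.29 and 5.96 on day 7, against -1.16 to -0.54 in controls. The rise of 3.27 ± 0.39 had an adjusted p of 3.92e-05. On other scales the difference was smaller, 0.20 after quantile normalisation and 0.76 as deposited. A fit with a mean-variance trend and robust spread left the difference at 3.27 but gave an adjusted p of 0.183. Mmp13, a collagenase, was at -0.03, 0.01, 0.06 and -0.13 and then at 1.36, 1.64, 1.86 and 1.67, a rise of 1.65 ± 0.21 (adjusted p = 0.00061). Adam8, a protease of myeloid cells, rose by 1.53 ± 0.23. Mmp2 and Mmp14 had differences of 1.25 ± 0.27 and 1.20 ± 0.24 with adjusted p of 0.0786 and 0.0534, and Timp1, an inhibitor of these enzymes, one of -0.13 ± 0.41.

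Of 14 genes of fibroblasts and extracellular matrix, 2 rose (0.359% of all genes) and none fell. The list mean went from between 0.13 and 0.19 on day 3 to between 0.60 and 0.93 on day 7. Postn, periostin, a matrix protein of scar fibroblasts, was at 0.11, 0.15, -0.29 and 0.11 on day 3, overlapping the controls at -0.47 to 0.06. It was at 2.77, 3.19, 2.96 and 2.26 on day 7, a rise of 2.78 ± 0.39 (adjusted p = 0.000391). Col1a1, a chain of fibrillar collagen, was likewise at control level on day 3, at -0.13, -0.28, -0.06 and 0.01, and at 1.84, 2.10, 1.91 and 1.51 on day 7 (1.96 ± 0.29, adjusted p = 0.00206). Its difference was 0.45 in the deposited values (adjusted p = 0.689). Col3a1 and Col1a2 had differences of 1.73 ± 0.40 and 1.20 ± 0.24 that did not pass. Tnc, tenascin C, ran the other way, from between 1.32 and 1.79 on day 3 to between -0.10 and 0.33 on day 7 (-1.36 ± 0.29, adjusted p = 0.054). Cpxm1, Col18a1 and the elastin gene Eln also rose, by 1.71, 1.06 and 1.26, and Eln passed in none of the 8 fits that left out an array.

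The second largest rise, of 4.08 ± 0.59 (adjusted p = 0.000361), was that of the probe named Mir675. Its arrays were at 0.37, 0.31, 0.20 and -0.01 on day 3 and at 4.61, 4.59, 4.41 and 3.58 on day 7, with controls at -1.13 to -0.25. The gene of this microRNA lies inside H19, a long imprinted RNA of growing tissue, which spans chr7:142575530-142578146 in the RefSeq annotation of GRCm38.p6. H19 has no probe of its own among the genes analysed, so the probe may read H19 RNA, the hairpin or both. The deposited values gave a difference of 1.70 (adjusted p = 0.223). Both mature arms are on the minus strand, and they are shown as RefSeq gives them because the hairpin yields a pair of RNAs with different seeds (bases 2 to 8, in capitals).
mmu-miR-675-5p, chr7:142577112-142577133: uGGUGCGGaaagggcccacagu
mmu-miR-675-3p, chr7:142577078-142577099: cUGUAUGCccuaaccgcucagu
Igf2, the growth factor gene beside H19, had a difference of 1.61 ± 0.54 against a bound of 1.06 and did not pass.

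Among the other leading rises, Lyz2, lysozyme of myeloid cells, was at 0.31, 0.17, 0.48 and 0.91 on day 3 and at 3.51, 3.61, 3.70 and 2.27 on day 7. The groups were apart, and the difference of 2.80 ± 0.48 passed narrowly against a bound of 0.93 (adjusted p = 0.0457). It no longer passed without any 1 of the 4 day 3 arrays or of day 7 replicates 1, 2 and 3, at 2.66 to 2.95 with adjusted p of 0.064 to 0.183. Bcl2a1b, which protects myeloid cells from apoptosis, was at 1.08, 1.49, 1.17 and 1.31 and then at 3.28, 3.15, 3.15 and 2.74, a rise of 1.81 ± 0.22 (adjusted p = 0.000142). Bcl2a1d and Bcl2a1a rose by 1.66 and 1.39, the latter in 4 of the 8 fits without an array, but the copies of this gene are nearly identical and their probes may read one another.

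Markers of the cell types that could carry these rises moved unevenly. None of 11 genes of homeostatic microglia passed the test, with a median of 0.16, and P2ry12 and Tmem119, defining receptors of resting microglia, were at -0.26 ± 0.25 and -0.06 ± 0.15. Cx3cr1 was at 0.62 ± 0.32 and Csf1r at -0.19 ± 0.24. Of 14 genes of monocytes and macrophages only Lyz2 rose, the median was 0.22, and the list mean was 0.56 to 0.69 on day 3 and 0.87 to 1.16 on day 7. Ccr2 and Ly6c2, which mark monocytes newly arrived from blood, were at -0.04 ± 0.21 and -0.21 ± 0.20, and Arg1, an enzyme of wound macrophages, was at -1.01 ± 0.44 with all day 7 arrays below all day 3 arrays (adjusted p = 1). None of 12 neutrophil genes and none of 13 lymphocyte genes passed. The mean of the neutrophil list was -0.21 to 0.17 on day 3 and -0.23 to -0.07 on day 7, that of the lymphocytes -0.09 to -0.02 and -0.14 to 0.02. The part of cell numbers in the rises above was not tested.

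The largest fall was that of Tgm1. Its arrays were at 2.49, 3.65, 2.32 and 3.12 on day 3 and at 0.42, 0.72, 0.45 and 0.68 on day 7, with controls at -1.71 to -0.65. Day 7 thus lay between day 3 and the controls, with no overlap on either side. The fall was -2.33 ± 0.44 (adjusted p = 0.0104). Without day 3 replicate 2, the highest array, it was -2.08 (adjusted p = 0.0789), and as deposited -1.38 (adjusted p = 0.173). Tgm1 was the only 1 of 16 genes of reactive astrocytes to pass, and the list median was -0.32. Lcn2, lipocalin 2, an acute protein of reactive astrocytes and neutrophils, was at 0.60, 2.14, -0.14 and 1.21 on day 3 and at -1.57, -1.39, -1.96 and -1.78 on day 7. All day 7 arrays lay below all day 3 arrays and above the controls at -4.26 to -3.45, but the difference of -2.63 ± 0.73 stood against a bound of 1.70 and did not pass. Gfap and Vim, the filaments of reactive astrocytes, were at -0.11 ± 0.26 and -0.15 ± 0.18. The list mean of day 3 replicate 2 was 0.85, and the lowest of day 3 was 0.01, against -0.23 to -0.10 on day 7.

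Of 16 immediate early genes, which neurons switch on with activity, 1 fell (0.185% of all genes), none rose, and the median was -0.46. All day 7 arrays lay below all day 3 arrays in 9 of them (10.2% of all genes). Arc, which tunes synapses after activity, was at 1.54, 1.80, 0.94 and 0.72 on day 3 and at -0.16, 0.31, 0.19 and 0.06 on day 7, with controls at 0.88 to 2.19. Day 3 overlapped the controls and day 7 lay below both. The fall of -1.15 ± 0.23 passed narrowly (adjusted p = 0.0473), and not without day 3 replicate 1 or 2 or without any 1 day 7 array (-1.22 to -0.97, adjusted p of 0.0792 to 0.315). Fos and Fosb had differences of -0.87 ± 0.16 (adjusted p = 0.0562) and -1.53 ± 0.40 (adjusted p = 0.187), and the day 3 value of Fosb was 3.21 in replicate 2 against -0.02 to 0.46 in the other 3.

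Among stress genes, Hspa5 was at 0.51, 1.63, 0.69 and 0.91 on day 3 and at -0.14, -0.01, -0.10 and -0.03 on day 7, the latter overlapping the controls at -0.18 to -0.09. It fell by 1.01 ± 0.19 (adjusted p = 0.0415), but not past the test without day 3 replicate 2 or 4 or without any 1 day 7 array (-1.03 to -0.78, adjusted p of 0.0837 to 0.316). It was the only 1 of 11 heat shock and stress genes to pass. Day 3 replicate 2, the array with the widest spread, was also the highest in this list, at 0.75 against 0.06 or less in all day 7 arrays.

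The remaining 9 of the 12 largest falls were of mixed function. Gpd1, which links glycolysis to lipid synthesis and is prominent in oligodendrocytes, was at -0.13, 0.79, 0.03 and 0.11 on day 3 and at -1.19, -0.86, -0.98 and -0.99 on day 7 (-1.21 ± 0.19, adjusted p = 0.00471). Tubb2b, a tubulin of growing neurites, was at 0.35, 0.67, 0.69 and 0.62 and then at -0.71, -0.56, -0.43 and -0.59 (-1.15 ± 0.17, adjusted p = 0.0404). It did not pass without any 1 array other than day 3 replicate 1 (-1.20 to -1.11, adjusted p of 0.0543 to 0.141). Ap1b1, a subunit of a clathrin adaptor, fell by 1.07 ± 0.15 (adjusted p = 0.0033) from between 0.34 and 0.56 to between -0.73 and -0.47.

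Elovl2, which lengthens polyunsaturated fatty acids, fell by 0.91 ± 0.15 (adjusted p = 0.0286) and did not pass without day 3 replicate 2 or 3 or without day 7 replicate 1, 2 or 4 (-0.93 to -0.84, adjusted p of 0.0634 to 0.135). Pdp1, the phosphatase that activates pyruvate dehydrogenase, was at 1.05 to 1.24 on day 3 and 0.09 to 0.31 on day 7 (-0.92 ± 0.10, adjusted p = 0.000391). Clstn1, a cargo protein of axonal transport, fell by 0.94 ± 0.14, though without day 3 replicate 3 the difference was -0.86 (adjusted p = 0.0639). Mapk8ip2, a scaffold of the JNK pathway in neurons, fell by 0.96 ± 0.11 (adjusted p = 0.00061). Orc4, a subunit of the origin recognition complex, fell by 0.99 ± 0.13, and Bpifb2, a member of the lipid-binding BPI family, by 1.01 ± 0.14.

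None of 18 cell cycle genes passed, with a median of -0.24. Mki67, a marker of dividing cells, was at 3.25, 2.70, 2.74 and 3.16 on day 3 and at 2.83, 2.53, 2.78 and 1.78 on day 7, with overlap, while the controls were at -0.09 to 0.03. Pbk, a mitotic kinase, had the lowest value of the list, -1.18 ± 0.38 (adjusted p = 0.551). None of 16 myelin genes passed, with a median of -0.07, and Mbp and Mog were at -0.06 ± 0.11 and -0.01 ± 0.23. Ugt8a, which makes the galactolipids of myelin, had a difference of -1.49 ± 0.32 against a bound of 1.42. None of 10 genes of oligodendrocyte precursors passed, with a median of 0.16. In the 13 genes of cortical excitatory neurons the median was -0.08, and Nrgn, a calmodulin-binding protein of their dendrites, came nearest at 0.84 ± 0.15 (adjusted p = 0.0653). Among 20 pan-neuronal genes the neurofilament genes Nefm and Nefh had differences of -1.16 ± 0.15 and -0.79 ± 0.12 with no overlap of arrays, but their bounds were 0.90 and 0.67 and they did not pass. A p that misses the threshold does not show that these genes were equal on both days.

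**Figure D3:**
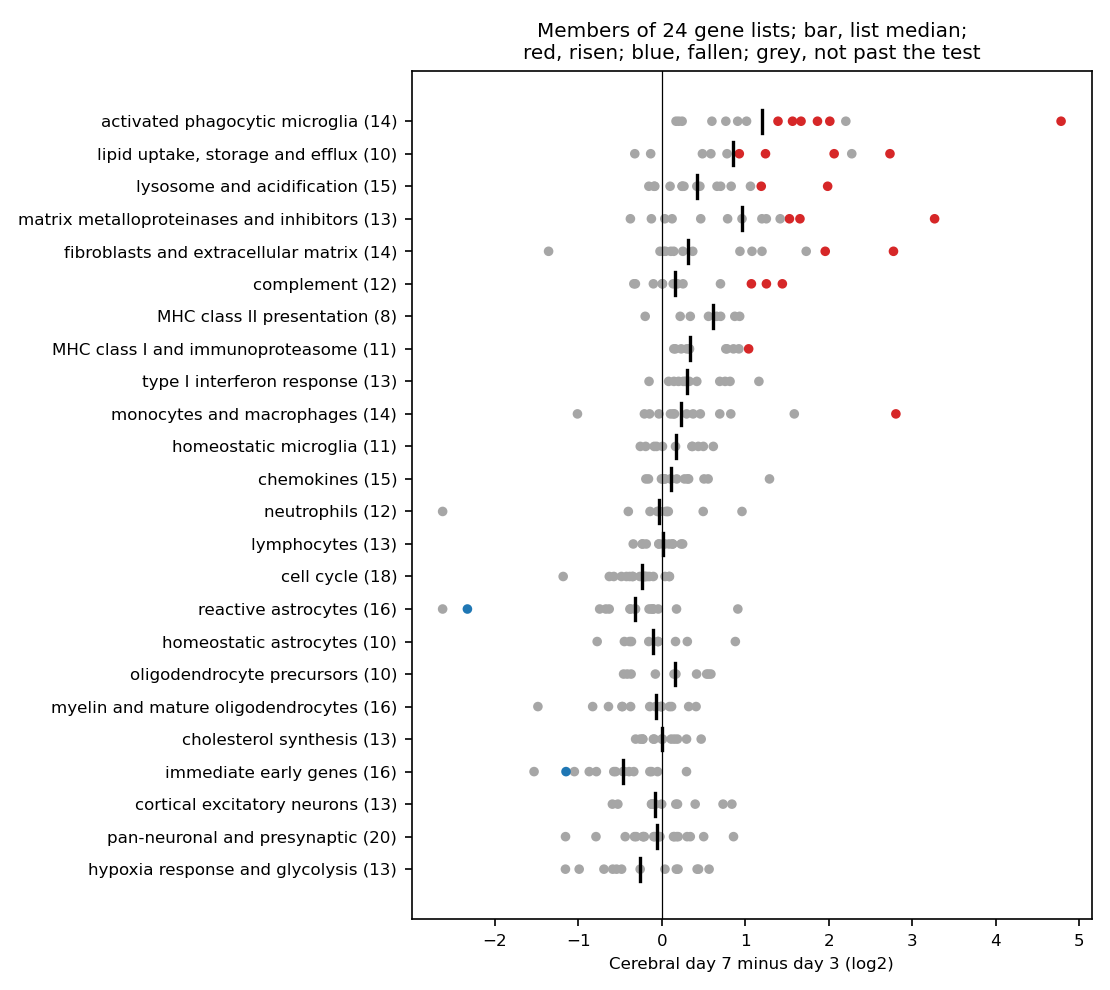
Difference between cerebral day 7 and day 3 (log2, horizontal axis) of each measured member of 24 gene lists, with the list median as a black bar and the number measured in parentheses. Red members rose and blue members fell by the test, and the red points lie mainly in the lists of phagocytic microglia (6), lipid (4), metalloproteinases (3), complement (3), lysosome (2) and matrix (2).

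Set against the controls, the genes that changed fall into a few patterns. The genes were called on the difference between these same day 3 and day 7 arrays, which itself favours a crossing of the controls. The shares of all genes beside the counts, for rises and falls, are therefore a description and no test. All 4 day 7 arrays lay above all 4 control arrays in 55 of the 70 rises, against 14% of all genes tested. In 29 rises the day 3 arrays were already above the controls, as the day 7 arrays were (7.44% of all genes), among them Gpnmb, Mmp12, Plin2, Tyrobp, Trem2 and the C1q genes. In 19 rises day 3 still overlapped the controls and day 7 lay above (6.29% of all genes), among them Postn, Col1a1, Atp6v0d2, Ctsk, Tlr8 and Tgfbr1. In 20 rises the day 3 arrays were all below the controls (13% of all genes). Of these, 10 overlapped the controls at day 7 (7.36%), such as Cyp46a1, the neuronal enzyme that clears cholesterol from the brain, at a mean of 1.69 in controls, 0.48 at day 3 and 1.36 at day 7 (past the test in 2 of the 8 fits without an array). A further 3 (Cnih2, Dtx3 and Pcgf2) stayed below the controls at day 7 (5.43%), and 7 crossed from below to above (0.22%), among them Clcn7, from between -0.70 and -0.20 to between 0.54 and 0.78 with controls at 0.05 to 0.35.

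Of the 36 falls, 24 had all day 3 arrays above all controls (12.5% of all genes). Of these, Tgm1 and Tubb2b were still above the controls at day 7 (7.44% of all genes have both days above). A further 9 overlapped the controls at day 7, including Hspa5, Gpd1 and Ap1b1 (4.74%), and 13 lay below them (0.277%). In 25 of the 36 falls the day 7 arrays were all below the controls (12.9% of all genes), among them Arc, Pdp1 and Clstn1. Both days and the controls meet in these values through the rebuilt offset, which the 8 controls fix. These placements compare the rebuilt values directly, and no bound was applied to them. A narrow gap between a day and the controls may therefore lie within the error of that day's offset.

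**Figure D4:**
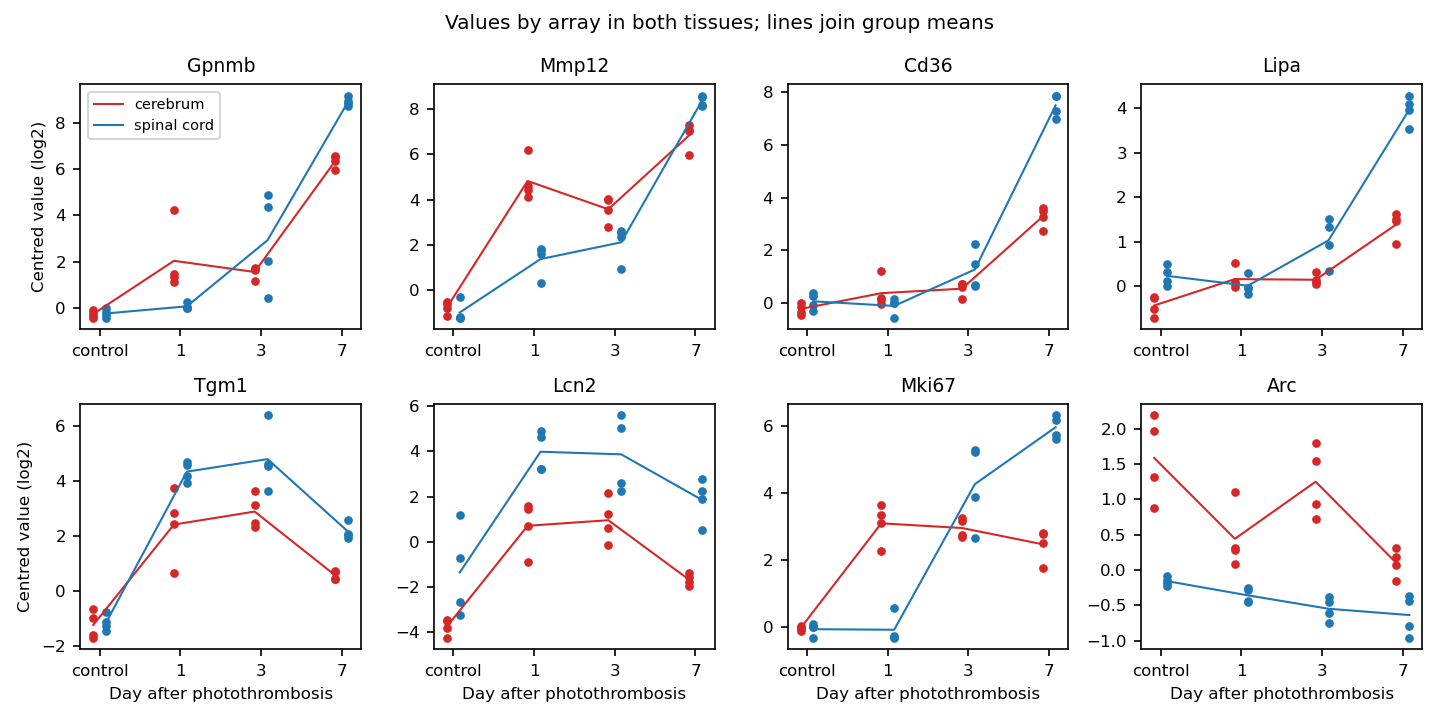
Centred log2 value of each array (points) and group mean (lines) for 8 genes in control tissue and on days 1, 3 and 7 after photothrombosis, cerebrum in red and spinal cord in blue. In the cerebrum Gpnmb, Cd36 and Lipa climb mainly after day 3, Mmp12 is already high on day 1, Tgm1 and Lcn2 come down by day 7, and Mki67 stays high.

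The change from day 3 to day 7 was then compared with that after spinal cord photothrombosis. Cerebral and spinal arrays of a day were centred together, so the offset cancels in the difference of the changes, which was tested against 0 by limma. The changes differed between the tissues in 2509 of 19505 genes (12.9%), with the cerebral change above the spinal one in 1296 (6.64%) and below it in 1213 (6.22%). In the spinal cord alone 1642 genes changed between the days (8.42%), 876 up (4.49%) and 766 down (3.93%). That change was tested against the same bounds as the cerebral one, so this count and the 2509 come from unlike tests. The changes of the tissues rest on the same controls through the offset, so a like direction in both is no independent evidence. Of the 106 cerebral genes, 55 had a difference between tissues past the test. The titles of the spinal day 7 arrays begin with P, and those of all other arrays begin with G. The part of this in the spinal changes and in the differences between tissues was not tested.

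For 6 of the 12 largest cerebral rises the spinal rise was larger by the test, among them genes of lipid uptake and of phagocytes. Cd36 reached 6.96 to 7.87 in the spinal arrays of day 7, from 0.66 to 2.26 on day 3, and the cerebral minus the spinal change was -3.48 ± 0.40 (adjusted p = 8.79e-07). Atp6v0d2 rose by 4.96 in the spinal cord and 1.99 in the cerebrum (difference -2.98 ± 0.33, adjusted p = 6.14e-07). Mmp12 rose by 6.27 and 3.27 (difference -3.0 ± 0.55, adjusted p = 0.000385), Plin2 by 3.52 and 2.06 (difference -1.46 ± 0.39, adjusted p = 0.0108). After quantile normalisation of the arrays, in which 795 genes differed between the tissues, the difference was -1.08 for Cd36 (adjusted p = 0.163) and -0.36 for Atp6v0d2 (adjusted p = 0.565). That of Mmp12 had an adjusted p of 0.132 with a mean-variance trend. By the test, 8 of 10 lipid genes and 6 of 14 phagocytic microglia genes had a cerebral change below the spinal one (6.22% of all genes). Gpnmb, Mir675, Lyz2, Postn, Cst7 and Bcl2a1b did not pass the test of the difference. For Gpnmb it was -1.19 ± 0.81 (adjusted p = 0.372), and for Cst7 0.31 ± 0.40 (adjusted p = 0.687), which does not show equal changes. Mmp13 ran against this pattern, with 1.65 in the cerebrum and 0.27 in the spinal cord (difference 1.39, adjusted p = 0.00188).

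The largest differences with the cerebrum below were of Ngp (-4.18 ± 0.49), Cd36, Camp (-3.25 ± 0.42), Il7r (-3.0 ± 0.35), Mmp12 and Atp6v0d2. After quantile normalisation Ngp was at -2.41, Camp at -1.59 and Il7r at -1.19, all still past the test. Ngp and Camp encode granule proteins made by maturing neutrophils. Ngp was at -0.66 to -0.37 in the cerebral arrays of day 3 and at -0.73 to -0.38 on day 7, while it went from between 0.14 and 2.03 to between 3.96 and 6.24 in the spinal cord. Of 12 neutrophil genes 8 had a cerebral change below the spinal one by the test, and 10 of 18 cell cycle genes did (6.22% of all genes). The largest differences with the cerebrum above were of A2ml1 (2.67 ± 0.49), Nrn1 (2.56 ± 0.41), Tac1 (2.35 ± 0.65), Mal2 (2.27 ± 0.56), Frmd3 (2.25 ± 0.57) and Tlcd3b (2.19 ± 0.27). After quantile normalisation Tac1, Mal2 and Frmd3 were at 1.79, 1.39 and 1.52 and no longer passed (adjusted p of 0.0823 to 0.102). Nrn1, neuritin, a neuronal growth protein, was at -0.49 to 0.54 and then 0.20 to 0.47 in the cerebrum, and fell from between -1.84 and -0.36 to between -3.61 and -2.32 in the spinal arrays. In the pan-neuronal list 10 of 20 genes had a cerebral change above the spinal one by the test (6.64% of all genes). In the cholesterol synthesis list 11 of 13 did, where the spinal median was -0.95 and the cerebral one -0.00. Among the falls, Hspa5 was higher at day 7 than at day 3 in the spinal cord by 0.32 ± 0.19 (not past the test), and the difference was -1.32 ± 0.26 (adjusted p = 0.000816). For Arc it was -1.06 ± 0.32 (adjusted p = 0.026). Spinal day 3 replicate 1 had the widest spread of all arrays, with an SD over genes of 0.413, and each fit that left out 1 of the 16 arrays compared gave 1830 to 3102 genes.

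**Figure D5:**
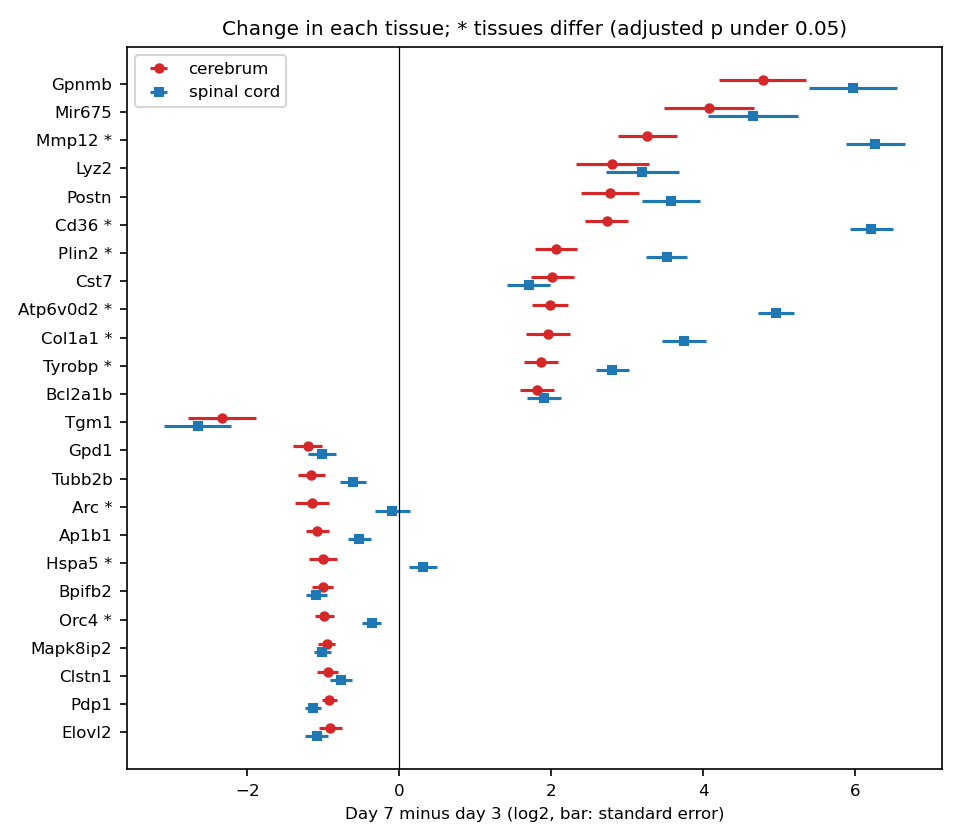
Change from day 3 to day 7 (log2, points, with bars of 1 standard error) in cerebrum (red circles) and spinal cord (blue squares) for the 24 largest cerebral rises and falls, with an asterisk where the changes differ between the tissues at an adjusted p under 0.05. Among the rises the spinal point lies farther right in all but Cst7, with an asterisk for Mmp12, Cd36, Plin2, Atp6v0d2, Col1a1 and Tyrobp. Among the falls the asterisks are at Arc, Hspa5 and Orc4, where the spinal point lies nearer 0 or beyond it.

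Promoters of the changed genes were searched on both strands, from 250 bases before to 50 after the RefSeq start (GRCm38.p6), for 4 motifs. Of the 70 rises 61 had a promoter in the table, and of the 36 falls 29. The lysosomal E-box TCACGTGA was in 1 of 61 rises (1.64%, that of Clcn7) against 1.45% of array genes and 0.974% of the 32851 promoters. The interferon response core TTTCNNTTT was in 8 (13.1%) against 11.2% and 10.6%, and the E2F motif, TTTCGCGC or TTTGGCGC, was in none of the rises and 1 of 29 falls (3.45%, against 1.29% of array genes). The cAMP response motif TGACGTCA was in none of the rises and 2 of 29 falls (6.90%, against 2.63% of array genes). The E2F and cAMP shares rest on 1 and 2 genes.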

How the data were processed

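The authors deposited 1 table of log2 values from 32 Affymetrix arrays (summarisation, software and build: not given in the sources used here). RNA was extracted with TRIzol and 10 ng was labelled with biotin, per the labels. The deposited log2 values are centred per probe in separate sets. The 16 control and day 1 arrays share a median of 0 in 100% of probes. Each later day was centred together with the 8 controls, a rule met in 86.8% (day 3) and 86.4% (day 7) of the probes that could test it, against 69.2% and 70.1% with the day 1 arrays as partners instead. For each day the offset that puts the median of the 8 controls and that day's 8 arrays at 0 was rebuilt and added. It was a single value in 77.9% and 80.0% of probes and otherwise a range, whose midpoint was used.

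Of 22206 probes 19572 carry 1 symbol, giving 19505 genes, with several probes averaged in 55, and 2634 probes without a symbol were left out. A limma model of 8 groups was fitted to all 32 arrays (24 residual degrees of freedom). The cerebral difference, like that of the spinal cord alone, was tested against a bound. The bound is the half-widths of both ranges plus allowances of 0.120 and 0.145 for other differences between the sets. These are the 99th percentiles of the mismatch among probes in which the match failed. The match could be tested in 5621 (day 3) and 5127 (day 7) of the probes. The bound is thus a chosen allowance and not a proven limit on the error. The difference between tissues was tested against 0. Calls have a Benjamini-Hochberg adjusted p under 0.05 over all genes. The test was checked on simulated data in which every probe was centred by the assumed rule. That check therefore cannot speak to the allowances or to probes in which the rule fails.

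The rule for named genes took, past the test, 12 rises and 12 falls of greatest size whose day 7 arrays all lie beyond all day 3 arrays, and 6 differences between tissues each way, passing over predicted genes and olfactory or vomeronasal receptors. Members of the 38 lists, which hold 510 genes with 466 measured, may be named anywhere, and other genes were named after their values were seen. The lists and the members were chosen with earlier results of these data known. Replicate numbers follow the order of deposition. The alternatives tried were the deposited values, other bounds, further normalisation, array weights, other filters and fits, and leaving out each array. Precision is limited by the 4 arrays a group. The fits ran in limma 3.58.1 under R 4.3.3, and tables and plots were made in Python 3.11.15 (matplotlib 3.10.9, pandas 2.3.3, numpy 2.4.6).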

Additional observations from a re-analysis of the deposited data

Results flagged for a closer look

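In groups of 4 arrays, the highest or lowest array was set apart from the other 3 by Dixon's criterion in 15 cases. Chance meets this criterion in about 1 in 20 groups. The groups checked were cerebral day 3 and day 7, for the 12 rises, the 12 falls and the means of some lists. For the 6 differences between tissues each way, both days were checked in both tissues. Some genes and lists overlap, so the cases are not independent, and they were not set against the count that chance would give. Cerebral day 3 replicate 2 was low in Gpnmb (1.17), Cd36 (0.143) and Frmd3 (-0.595), and in the list means of MHC class II (0.0874) and myelin (-0.752). Cerebral day 3 replicate 3 was low in Postn (-0.286) and in the fibroblast and matrix list (0.126), and replicate 1 in the lipid list (0.182). Cerebral day 7 replicate 4 was low in Lyz2 (2.27) and Atp6v0d2 (1.01), and in the list means of lipid (1.08), metalloproteinases (1.02) and fibroblasts and matrix (0.604), and high in Ngp (-0.376). Spinal day 3 replicate 1 was low in Mmp12 (0.94).

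The change from day 3 to day 7 differed between the tissues, cerebral minus spinal, in Mmp12 (-3), Cd36 (-3.48), Plin2 (-1.46), Atp6v0d2 (-2.98), Col1a1 (-1.79), Tyrobp (-0.943), Arc (-1.06), Hspa5 (-1.32), Orc4 (-0.622), Ngp (-4.18), Camp (-3.25) and Il7r (-3). It was above the spinal change in A2ml1 (2.67), Nrn1 (2.56), Tac1 (2.35), Mal2 (2.28), Frmd3 (2.25) and Tlcd3b (2.19).

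Cerebral day 1, which the comparison does not use, held arrays above all controls and all day 3 arrays in genes that rose later. The library labelled day 1 replicate 4 was so in Gpnmb (4.24), Mir675 (3.29), Mmp12 (6.2), Lyz2 (1.19), Postn (1.93), Cd36 (1.24), Plin2 (1.66), Cst7 (0.895), Tyrobp (1.71) and Bcl2a1b (1.74). For Mmp12 the other 3 day 1 arrays were above day 3 too, at 4.6, 4.42 and 4.1 in replicates 1, 2 and 3.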

How the results depend on the processing

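The count of genes changed between cerebral day 3 and day 7 depends above all on the bound. It was 106 with the bound, 229 with the allowances combined as a root of summed squares (137 higher, 92 lower), 1581 with the half-widths alone and 2047 with the offset taken as exact. Quantile normalisation gave 454 (213 higher and 241 lower), array weights 212, and a fit of only the groups compared 205, with 94 of the 106 among them; scaling to the 75th percentile gave 98, split 50 to 48. Leaving out 1 array gave 60 to 80. A mean-variance trend with robust spread gave 79, and ended the calls of Mmp12, Lyz2, Arc and Hspa5 (adjusted p of 0.183, 0.0529, 0.0527 and 0.0686). The count of genes that differ between the tissues was 2509, and 795 after quantile normalisation. As deposited, list medians came to 0.412 for phagocytic microglia, -0.0428 for homeostatic microglia, 0.238 for lipid, 0.111 for lysosome, 0.295 for metalloproteinases, 0.122 for MHC class II, -0.123 for reactive astrocytes, 0.0978 for fibroblasts and matrix, -0.25 for immediate early genes and -0.0951 for hypoxia. After quantile normalisation they came to 0.504 for lysosome and -0.355 for the cell cycle. In the deposited values each day has lost the median of its arrays and the 8 controls, which can shift a difference either way. The median of the myelin list was -0.067 on both scales. The 24 named genes were picked as the largest on the rebuilt scale, which favours smaller values on another. Other causes were not tested. None of the 24 named genes changed sign under any alternative, and 17 of them passed in all 8 fits that left out 1 array. No paired analysis was possible because the labels give the groups no shared replicate numbers.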

Other observations

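Some lists not described above held single genes of interest. Npy, a peptide of interneurons, was the 1 of 11 genes of axon injury and regeneration to pass. It was at 0.03, 1.41, 0.42 and 0.22 on day 3 and at 1.34, 1.86, 1.79 and 1.94 on day 7 (1.21 ± 0.24, adjusted p = 0.0479). The call held in only 2 of the 8 fits that left out an array. Day 3 replicate 2 overlapped the day 7 arrays, whose mean of 1.73 is near that of the controls, 1.65. Of 13 genes of the hypoxia response and glycolysis none passed, with a median of -0.26 and all day 7 arrays below all day 3 arrays in 6 (10.2% of all genes), among them Vegfa (-0.59 ± 0.16), Slc2a1 (-0.69 ± 0.14) and Ndrg1 (-1.16 ± 0.19 against a bound of 1.01).

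Nr1d1, a repressor of the circadian clock, rose by 1.24 ± 0.21 (adjusted p = 0.01) and passed in 6 of the 8 fits that left out an array. It was at -0.02, -0.97, 0.19 and 0.18 on day 3 and at 1.03, 1.26, 0.95 and 1.09 on day 7, where it overlapped the controls at 0.77 to 1.5. Other clock genes, chosen after this value was seen, did not pass: Dbp, a clock output, was at 1.21 ± 0.27 (adjusted p = 0.378), Ciart at 0.95 ± 0.25, Per2 at -0.57 ± 0.17, Clock at -0.45 ± 0.09, Per1 at -0.11 ± 0.25 and Arntl at -0.09 ± 0.18. In the spinal cord Nr1d1 was at 0.04 ± 0.21, and the difference between the tissues was 1.20 (adjusted p = 0.00604). The time of day of collection is not in the labels used here, and its part was not tested.

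Pmch, a peptide gene of the hypothalamus, varied widely within the groups. Its arrays were at 2.43 to 4.05 on day 3 and at 3.73, 8.06, 8.77 and 9.45 on day 7, and among the controls 2 arrays were above 6 and 2 near 0. The difference of 4.45 ± 1.06 stood against a bound of 3.38 and did not pass. The mean of 11 pituitary and hypothalamus genes was 0.23 to 0.44 on day 3 and 0.38 to 1.57 on day 7, and none of them passed.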
